A study of Mus musculus with 7 samples.

Results

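The genes that move, store and sense iron and heme were followed here in mouse kidney, across all 7 libraries of the series. The group holds 10 genes, named by symbol: Hmox1, Ftl1, Fth1, Tfrc, Slc40a1, Slc11a2, Cp, Trf, Ireb2 and Aco1. Every symbol matched 1 identifier among the 42256 of the deposited count table, and all 10 passed the filter on low counts. Whole kidney RNA came from adult male mice of a mixed 129S1/Sv x C57BL/6 background, 3 of genotype CDH11+/+ and 4 of genotype CDH11-/-. CDH11 is cadherin-11, an adhesion protein of mesenchymal cells. All 7 mice had 1 kidney removed and received angiotensin II from a pump at 800 ng/kg/min, and the kidney was taken 4 weeks later. Uninjured mice are not part of the comparison, so a difference between genotypes before injury and a different response to injury cannot be told apart. The allele was not described in the sources used here.

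Iron enters most cells as a complex of ferric iron with transferrin (Trf), which binds transferrin receptor 1 (Tfrc). Inside endosomes the iron is reduced and leaves through the divalent metal transporter DMT1 (Slc11a2). Spare iron is held in ferritin, a shell of heavy (Fth1) and light (Ftl1) chains, and is exported by ferroportin (Slc40a1) with the help of ferroxidases such as ceruloplasmin (Cp). Heme oxygenase 1 (Hmox1) frees iron from heme. The iron regulatory proteins IRP1 (Aco1, which is also a cytosolic aconitase) and IRP2 (Ireb2) bind hairpins called iron-responsive elements when iron is scarce. Binding ahead of the coding sequence blocks translation, and binding behind it stabilises the Tfrc message. In the kidney, proximal tubule cells take back filtered transferrin and iron through megalin (Lrp2) and cubilin (Cubn).

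The hairpin letters set the members apart in sequence, so they are shown first. GENCODE release M21 transcripts were searched on the sense strand for a C, any 5 bases and the loop CAGTGN, where the 5 bases before the loop can pair (A-T, G-C or G-T) with the 5 after it. Of 21901 protein-coding genes, 160 (0.731%) held such a match in a UTR, 31 in the 5′ UTR (0.142%) and 129 in the 3′ UTR (0.589%). Among the members, 4 of 10 did: Fth1, Ftl1 and Slc40a1 before the coding sequence, and Tfrc at 4 places behind it. Each match is printed 5′ to 3′ as DNA letters with 6 bases on either side, and capitals mark the bulged C and the 6-base loop. Coordinates are on mm10.
Fth1, 5′ UTR, chr19:9982732-9982760, plus strand: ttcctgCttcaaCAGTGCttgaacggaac
Ftl1, 5′ UTR, chr7:45459779-45459807, minus strand: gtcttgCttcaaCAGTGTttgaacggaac
Slc40a1, 5′ UTR, chr1:45925465-45925493, minus strand: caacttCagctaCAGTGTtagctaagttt
Tfrc, 3′ UTR, chr16:32631219-32631247, plus strand: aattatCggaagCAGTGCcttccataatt
Tfrc, 3′ UTR, chr16:32631598-32631626, plus strand: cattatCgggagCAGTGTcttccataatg
Tfrc, 3′ UTR, chr16:32631663-32631691, plus strand: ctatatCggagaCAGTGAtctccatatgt
Tfrc, 3′ UTR, chr16:32631710-32631738, plus strand: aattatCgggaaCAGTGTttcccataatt
The Fth1 and Ftl1 matches shared 26 of 29 positions, and each shared 13 with the Slc40a1 match. Below the bulge, 4 of 6 flanking bases could pair in Fth1, 5 of 6 in Ftl1 and Slc40a1, and 5 or 6 of 6 at the Tfrc sites. The other 6 members held no such match in a UTR, which says only that these letters are not there. Counts per gene do not show how much of a gene's RNA carries its element.

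Before the results, the labels were checked against the targeted gene and the tissue. Cdh11 stood at 6.79, 4.52 and 10.77 CPM (counts scaled to library size by TMM, edgeR's counts-per-million unit) in the CDH11+/+ libraries and at 11.26, 9.56, 11.64 and 10.98 CPM in the CDH11-/- ones. It was thus not lower in the libraries labelled knockout (log2 fold change 0.56, SE 0.25, adjusted p = 0.140, edgeR), and the log2 fold change was 0.93 without CDH11+/+ replicate 3 (adjusted p = 0.0043, edgeR). With the factors of the deposited normalized table entered as offsets it was 0.08 (adjusted p = 0.888, edgeR). Because the targeted gene was not lower and the allele is not described, its counts can neither bear out nor contradict the labels. All directions below are therefore between libraries labelled CDH11-/- and libraries labelled CDH11+/+. Library totals ranged from 72087906 to 84786351 counts, and mitochondrial ribosomal RNA took 13.5% to 18.2% of counts in the CDH11+/+ libraries and 10.7% to 13.5% in the others. Kidney markers were abundant in all 7 libraries (Umod, for example, at 1689 CPM or more). CDH11+/+ replicate 3 had a summed Y-linked level (Uty, Kdm5d, Ddx3y and Eif2s3y) of 64.7 CPM, against 111 to 145 CPM in the other 6 libraries.

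Iron uptake and sensing genes were higher in the CDH11-/- libraries, and the plasma iron proteins Cp and Trf were lower. Of the 10 members, 7 were called at an adjusted p under 0.05, where 29.7% of all 17964 tested genes were called. Of these, 5 were higher (Slc11a2, Tfrc, Ireb2, Aco1 and Fth1), against 16.8% of all tested genes, and 2 were lower (Cp and Trf), against 12.9%. Hmox1, Ftl1 and Slc40a1 were not called. The groups did not overlap in 7 members, against 38.5% of all tested genes. The median log2 fold change was 0.17 over the members and -0.01 over all tested genes, and the median size regardless of sign was 0.46 against 0.25. With 1 library left out at a time, 3 or 4 members were called higher, with 3 when CDH11+/+ replicate 1 or 3 or CDH11-/- replicate 2, 3 or 4 was the one omitted. Between 1 and 3 were called lower, with 1 without CDH11-/- replicate 2. The same 10 genes are drawn library by library in the plot of CPM.

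**Figure D1:**
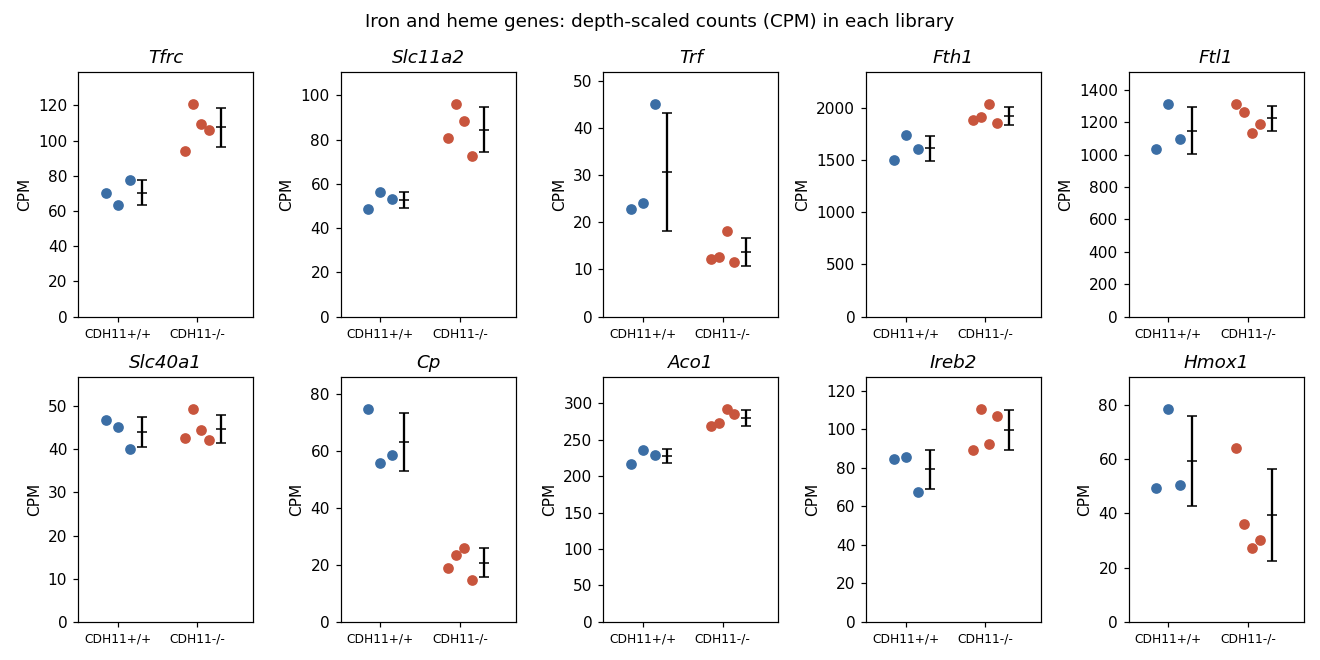
Depth-scaled counts (CPM, y axis from 0) of each member in the 3 CDH11+/+ libraries (blue) and the 4 CDH11-/- libraries (red), 1 point per library, with the mean and SD of each group in black. Tfrc and Slc11a2 lie wholly above the CDH11+/+ libraries, Cp and Trf wholly below, and Slc40a1 stays between 40.13 and 49.31 CPM throughout.

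Transferrin receptor and the endosomal iron transporter both rose. Tfrc (ENSMUSG00000022797, mm10 chromosome 16, 32608920 to 32632794, plus strand) stood at 70.09, 63.55 and 77.65 CPM in the CDH11+/+ libraries and at 93.96, 120.94, 109.60 and 105.86 CPM in the CDH11-/- libraries. The lowest CDH11-/- library was above the highest CDH11+/+ library. The log2 fold change was 0.61 (SE 0.10, adjusted p = 0.00205, edgeR), or 1.53-fold, and the call held in all 19 alternatives, with log2 fold changes from 0.47 to 0.68. Slc11a2 (ENSMUSG00000023030, mm10 chromosome 15, 100387898 to 100425072, minus strand) was at 48.74, 56.21 and 52.93 CPM against 80.53, 96.20, 88.34 and 72.64 CPM. These groups did not overlap either, and the log2 fold change was 0.68 (SE 0.10, adjusted p = 0.00124, edgeR), or 1.60-fold, and it was called in all 19 alternatives. Slc11a2 transcripts with and without an iron-responsive element are known, and gene counts add them up. A different number of cells of a type and a different amount of RNA per cell cannot be told apart in whole tissue. Of 8 proximal tubule markers, 4 were called higher by edgeR, where 16.8% of all tested genes were, and 0 lower. Their summed level, with Lrp2 as its largest part, was 7891 to 9281 CPM in the CDH11+/+ libraries and 11906 to 13452 CPM in the others. Among them Slc34a1, the phosphate transporter, rose 2.20-fold, the glucose transporter Slc5a2 3.04-fold and the organic anion transporter Slc22a6 from a mean of 498 to 746 CPM. Slc13a3 (log2 fold change -0.12) and Aqp1 (0.0022), also singled out after their values were seen, were not called. The log2 fold change of Slc5a2 was 1.61, and 2.33 without CDH11+/+ replicate 3. Its call was lost without each library except CDH11+/+ replicate 3 (adjusted p of up to 0.105, edgeR). The part of cell make-up in the rise of Tfrc and Slc11a2 was not tested.

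Transferrin itself fell. Trf (ENSMUSG00000032554, mm10 chromosome 9, 103204001 to 103230444, minus strand) was at 22.81, 24.02 and 45.15 CPM in the CDH11+/+ libraries and at 12.30, 12.73, 18.14 and 11.50 CPM in the CDH11-/- libraries. CDH11+/+ replicate 3 was the highest library by far, and the groups did not overlap. The change was -1.17 on the log2 scale (SE 0.28, adjusted p = 0.0181, edgeR), or 2.24-fold lower. Without CDH11+/+ replicate 3 it was -0.78 (adjusted p = 0.0152, edgeR), and the call was lost without CDH11-/- replicate 2 (adjusted p = 0.0523, edgeR).

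Ceruloplasmin changed most among the members. Cp (ENSMUSG00000003617, mm10 chromosome 3, 19957054 to 20009145, plus strand) stood at 74.68, 55.85 and 58.47 CPM in the CDH11+/+ libraries and at 19.00, 23.61, 25.91 and 14.62 CPM in the CDH11-/- libraries. Every CDH11-/- library was below the lowest CDH11+/+ library. On the log2 scale the change was -1.60 (SE 0.20, adjusted p = 0.000988, edgeR), or 3.03-fold lower, and stayed between -1.72 and -1.46 in all 19 alternatives, each of which called it. Cp and Trf are best known as products of the liver, so liver markers were read in the same libraries. Of the 8 hepatocyte markers, 5 had a mean under 1 CPM, among them Ahsg and Cps1, with at most 0.02 CPM in any library. Alb, the albumin gene, was at 5.92, 7.41 and 5.34 CPM against 2.34, 4.50, 5.40 and 3.13 CPM (log2 fold change -0.70, adjusted p = 0.085, edgeR). Of the 5 tested, 1 was called higher and 0 lower by edgeR with all libraries, where 16.8% and 12.9% of all tested genes were. Serpina1a, the 1 called higher, rose 2.19-fold (adjusted p = 0.0284, edgeR). DESeq2 called 1 lower, and edgeR without CDH11-/- replicate 3 also called 1 lower. The Serpina1a call was lost without any 1 of the CDH11+/+ libraries or CDH11-/- replicate 3 (adjusted p of up to 0.0836, edgeR). The summed level of the hepatocyte list was 26.2, 28.0 and 11.2 CPM in the CDH11+/+ libraries. In the CDH11-/- libraries it was 9.11, 65.2, 11.6 and 8.06 CPM, so the upper end came from replicate 2 alone.

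Ferroportin, the partner of ceruloplasmin in export, was not called. Slc40a1 (ENSMUSG00000025993, mm10 chromosome 1, 45908068 to 45926523, minus strand) was at 46.86, 45.16 and 40.13 CPM and at 42.54, 49.31, 44.56 and 42.24 CPM, and the groups overlapped throughout. The log2 fold change was 0.02 (95% confidence interval -0.16 to 0.20, adjusted p = 0.868, edgeR), so a change beyond 0.20 on the log2 scale lay outside the interval. Its sign turned in 4 of 19 alternatives, which include the fit on protein-coding genes.

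The ferritin chains, the storage side of the pathway, were the most abundant members. Fth1 (ENSMUSG00000024661, mm10 chromosome 19, 9980598 to 9985098, plus strand), the chain with ferroxidase activity, was at 1500, 1739 and 1605 CPM in the CDH11+/+ libraries and at 1883, 1917, 2042 and 1855 CPM in the CDH11-/- libraries. The groups did not overlap, and the log2 fold change was 0.25 (SE 0.08, adjusted p = 0.0418, edgeR), or 1.19-fold. This call was lost in 10 of 19 alternatives, among them the omission of any library except CDH11+/+ replicate 2 (adjusted p of up to 0.155, edgeR). Ftl1 (ENSMUSG00000050708, mm10 chromosome 7, 45457944 to 45459884, minus strand), the light chain, was at 1034, 1313 and 1095 CPM and at 1310, 1264, 1135 and 1189 CPM, which overlap. Its log2 fold change was 0.09 (95% confidence interval -0.13 to 0.32, adjusted p = 0.509, edgeR), so a rise as large as that of Fth1 lies within the interval.

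Near-identical copies make the light chain less certain. Ftl1-ps1 on chromosome 13, annotated as protein-coding, took 11.3% to 18.0% of the counts of Ftl1 and Ftl1-ps1 together, while Ftl2-ps, Ftl1-ps2 and Fth-ps2 each had 92 counts or fewer in any library. With these copies added to their parent genes, a choice made after seeing the data, the log2 fold changes were 0.07 for Ftl1 and 0.25 for Fth1. The ratio of Fth1 to Ftl1 counts was 1.45, 1.33 and 1.46 in the CDH11+/+ libraries and 1.44, 1.52, 1.80 and 1.56 in the CDH11-/- ones. The difference of the mean log2 ratio was 0.16 (exact permutation test over libraries, 2-sided, p = 0.171, adjusted over 2 ratios 0.171). The groups overlapped in this ratio. The ratio of Tfrc to Fth1 counts, uptake against storage, was 0.0467, 0.0365 and 0.0484 against 0.0499, 0.0631, 0.0537 and 0.0571, with all CDH11-/- libraries above all CDH11+/+ libraries. Its log2 difference was 0.36 (exact permutation test, 2-sided, p = 0.0571, the smallest that 35 splits allow, adjusted over 2 ratios 0.114). With the deposited normalized values the difference was 0.23 (exact permutation p = 0.171), and without CDH11+/+ replicate 2 it was also 0.23.

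Both iron sensors were higher. Aco1 (ENSMUSG00000028405, mm10 chromosome 4, 40143081 to 40198338, plus strand) was at 216.80, 235.90 and 229.53 CPM in the CDH11+/+ libraries and at 268.14, 273.45, 292.00 and 284.99 CPM in the CDH11-/- libraries, without overlap. This came to a log2 fold change of 0.30 (SE 0.06, adjusted p = 0.00736, edgeR), called in all 19 alternatives. Ireb2 (ENSMUSG00000032293, mm10 chromosome 9, 54863789 to 54912530, plus strand) was at 84.73, 85.72 and 67.71 CPM and at 89.17, 110.60, 92.62 and 106.73 CPM. These groups also did not overlap, though CDH11-/- replicate 1 lay close to CDH11+/+ replicates 1 and 2. The log2 fold change was 0.33 (SE 0.11, adjusted p = 0.0452, edgeR), a call lost in 9 of 19 alternatives, including the omission of any library except CDH11-/- replicate 1 (adjusted p of up to 0.109, edgeR). Without CDH11+/+ replicate 3 the log2 fold change was 0.22. IRP activity is set by iron-sulfur cluster loading and protein turnover, which RNA counts do not measure.

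Heme oxygenase 1 was not called, and it varied within both groups. Hmox1 (ENSMUSG00000005413, mm10 chromosome 8, 75093621 to 75100589, plus strand) was at 49.21, 78.52 and 50.44 CPM in the CDH11+/+ libraries and at 64.19, 36.16, 27.21 and 30.03 CPM in the CDH11-/- libraries. Of the 4 CDH11-/- libraries, 3 were below every CDH11+/+ library, and replicate 1 was above 2 of them. Its log2 fold change was -0.59 (95% confidence interval -1.41 to 0.22, adjusted p = 0.243, edgeR). Without CDH11-/- replicate 1 it was -0.93 (adjusted p = 0.0153, edgeR), and without CDH11+/+ replicate 2 it was -0.34 (adjusted p = 0.551, edgeR).

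**Figure D2:**
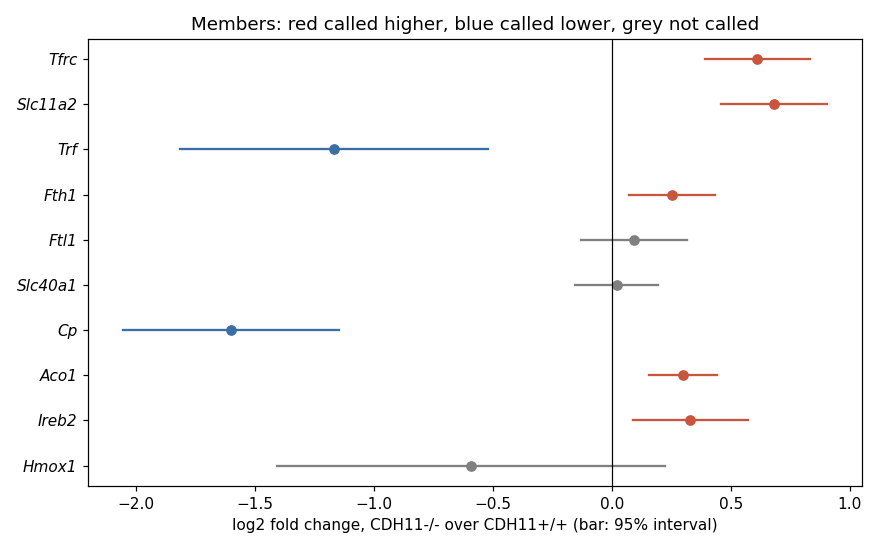
Log2 fold change of CDH11-/- over CDH11+/+ libraries (x axis) for each member, in the order of uptake, storage, export, sensing and heme breakdown, with 95% confidence intervals as bars. Red marks members called higher, blue those called lower and grey those not called. Cp, at -1.60, lies farthest from 0, and Hmox1 has the widest interval, from -1.41 to 0.22.

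Levels of different members were compared per kilobase of their longest protein-coding transcript. In the CDH11+/+ libraries Ftl1 stood at 1185 ± 152 and Fth1 at 1081 ± 80.3 CPM per kilobase (SD, n = 3). They differed by less than the SD of Ftl1, though by more than that of Fth1. Within each CDH11+/+ library Ftl1 was the higher, at 1070, 1360 and 1130 against 1000, 1160 and 1070 CPM per kilobase. Counts given to Ftl1-ps1 are not included. Aco1 followed at 59.3 ± 2.54 and Hmox1 at 37.9 ± 10.6 CPM per kilobase (SD, n = 3). The means of the other 6 lay close together, from 11.9 for Slc11a2 and Trf to 14.4 for Tfrc. The single libraries of Trf were wide apart, at 8.87, 9.34 and 17.6 CPM per kilobase (SD 4.89, n = 3). In the CDH11-/- libraries those 6 were spread from 4.55 ± 1.10 for Cp and 5.32 ± 1.18 for Trf, through 13.3 ± 0.969 for Slc40a1, to 22.0 ± 2.27 CPM per kilobase for Tfrc (SD, n = 4). Of neighbours in that order, Cp and Trf differed by less than the SD of either. Ireb2 (17.3 ± 1.82) and Slc11a2 (19.1 ± 2.30 CPM per kilobase, SD, n = 4) differed by less than the SD of Slc11a2 and by about that of Ireb2. Trf and Slc40a1, Slc40a1 and Ireb2, and Slc11a2 and Tfrc differed by more than the SD of either.

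**Figure D3:**
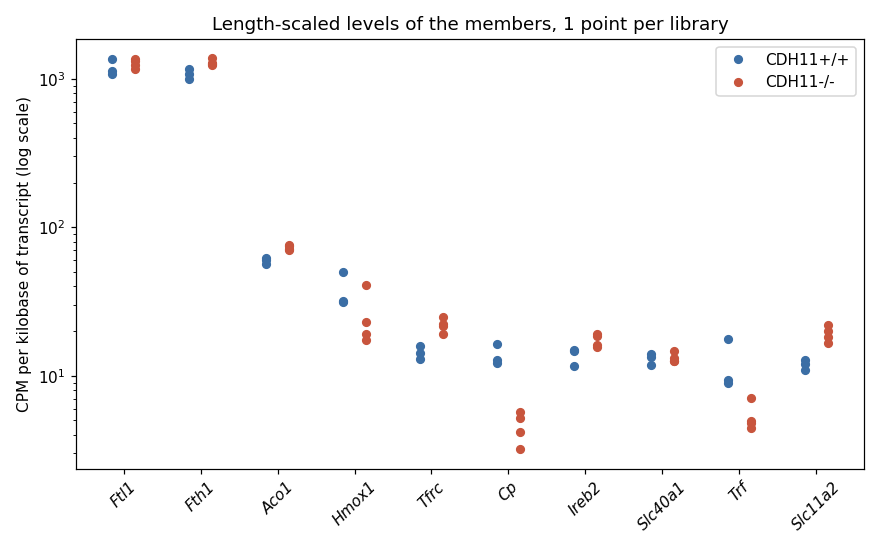
CPM per kilobase of the longest protein-coding transcript (log scale) for each member, 1 point per library, blue for CDH11+/+ and red for CDH11-/-. The ferritin chains lie near 1000. The members from Tfrc to Slc11a2 are close together in blue, except for the wide scatter of Trf, and are spread apart in red.

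Heme synthesis draws on the same iron. Of its 9 genes, 3 rose, where 16.8% of all tested genes did, 1 fell, where 12.9% did, and 5 were not called, and the median log2 fold change was 0.17. Alas1, the rate-limiting enzyme outside red cells, averaged 283 ± 34.1 CPM in the CDH11+/+ libraries (SD, n = 3) and 183 ± 44.1 CPM in the CDH11-/- libraries (SD, n = 4), 1.55-fold lower (edgeR adjusted p = 0.0298). The later enzymes Uros, Cpox and Ppox rose 1.47-fold, 1.34-fold and 1.20-fold, with adjusted p = 0.000644, 0.00486 and 0.0227 (edgeR). The Alas1 call was lost without any 1 of the CDH11+/+ libraries or CDH11-/- replicate 3 or 4 (adjusted p of up to 0.0982, edgeR). The Ppox call was lost without CDH11+/+ replicate 1 or 2 or CDH11-/- replicate 3 or 4 (adjusted p of up to 0.0947, edgeR).

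Among genes of heme breakdown and transport 3 of 11 tested were higher and 1 lower, close to the 29.7% called among all tested genes (median log2 fold change -0.20). Flvcr1, a heme exporter, was 1.66-fold lower, at 41.8 ± 5.39 CPM (SD, n = 3) against 25.2 ± 5.35 CPM (SD, n = 4, adjusted p = 0.0106, edgeR). The porphyrin transporter Abcb6 rose 1.53-fold (adjusted p = 0.000257, edgeR), the biliverdin reductase Blvra 1.28-fold (adjusted p = 0.0149, edgeR) and the efflux pump Abcg2 1.27-fold (adjusted p = 0.0278, edgeR). Blvra was not called without CDH11+/+ replicate 1 (adjusted p = 0.0695, edgeR), and Abcg2 was not called without CDH11+/+ replicate 1 or 3 or CDH11-/- replicate 1 or 2 (adjusted p of up to 0.0897, edgeR). Without CDH11+/+ replicate 1 the list had 1 gene higher and 2 lower, and without CDH11+/+ replicate 3 also 2 lower. Hmox2, the constitutive heme oxygenase, had a log2 fold change of 0.11 (adjusted p = 0.174, edgeR) and, like Alb above, was singled out after its values were seen.

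Other genes of iron uptake and reduction rose in 5 of 14, against 16.8% of all tested genes, and fell in 1 (median log2 fold change 0.13). Steap3, a ferrireductase of transferrin-cycle endosomes, was 1.59-fold higher, at 4.63 ± 0.982 CPM (SD, n = 3) against 7.36 ± 0.591 CPM (SD, n = 4; edgeR adjusted p = 0.00887). The lysosomal channel Mcoln1 rose 1.23-fold and megalin (Lrp2) 1.30-fold, with adjusted p = 0.0105 and 0.0109 (edgeR). Scara5, a ferritin receptor of stromal cells, was 1.83-fold lower, at 5.34 ± 1.04 CPM (SD, n = 3) against 2.92 ± 0.157 CPM (SD, n = 4, adjusted p = 0.00219, edgeR). Without CDH11+/+ replicate 1 the number rising was 3. It was 4 with each other scaling, filter and gene set, with 1 surrogate variable, limma-trend or the deposited factors as offsets.

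Of the 5 tested genes of iron storage and ferritin turnover, 0 were called by edgeR with all 7 libraries, where 29.7% of all tested genes were. DESeq2 and limma-voom also called 0 of the 5. An unadjusted p under 0.05 was found for 2 of them, and 1 was called higher by edgeR with 1 surrogate variable in the fit. The 2 most abundant were Ncoa4, the ferritin autophagy receptor (log2 fold change -0.20, adjusted p = 0.127), and the iron chaperone Pcbp2 (-0.19, adjusted p = 0.0894). Each was called lower without 1 library, Ncoa4 without CDH11-/- replicate 4 (adjusted p = 0.0367, edgeR) and Pcbp2 without CDH11+/+ replicate 1 (adjusted p = 0.0457, edgeR). In the export and hepcidin list 5 of 10 genes were too low to test, the hepcidin genes Hamp and Hamp2 among them. Neo1, a hemojuvelin receptor, rose 1.28-fold (adjusted p = 0.00479, edgeR). Tmprss6, the protease that cleaves hemojuvelin, stood at 0.95, 0.642 and 1.41 CPM against 0.224, 0.0279, 0.0578 and 0.0125 CPM, where the last 3 libraries held 2, 5 and 1 counts (log2 fold change -3.58, SE 0.67, adjusted p = 0.0049, edgeR). Without CDH11-/- replicate 1 the log2 fold change of Tmprss6 was -4.84.

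Fbxl5, the ligase subunit that marks IRP2 for destruction, rose 1.20-fold (adjusted p = 0.019, edgeR). Of the 5 other genes known for iron-responsive elements in that list, only Epas1, the HIF-2 alpha gene, was called by edgeR with all 7 libraries. Among all tested genes 29.7% were called. Epas1 was 1.21-fold lower (adjusted p = 0.04, edgeR). The call for Fbxl5 was lost without CDH11+/+ replicate 2 or 3 or CDH11-/- replicate 2 (adjusted p of up to 0.0536, edgeR), and that for Epas1 without each library except CDH11+/+ replicate 1 (adjusted p of up to 0.0973, edgeR).

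Mitochondrial iron import and iron-sulfur cluster assembly had 6 of 16 genes called higher and 0 lower by edgeR, against 16.8% and 12.9% of all tested genes (median log2 fold change 0.19). The cysteine desulfurase Nfs1 was 1.54-fold higher, at 62.6 ± 5.63 CPM (SD, n = 3) against 96.6 ± 2.93 CPM (SD, n = 4; edgeR adjusted p = 0.000387), and its partner Lyrm4 rose 1.52-fold (adjusted p = 0.00295, edgeR). The ferredoxin Fdx1 rose 1.39-fold and the late-acting factor Iba57 1.33-fold, with adjusted p = 0.00615 and 0.00432 (edgeR). The number rising was 5 or 6 when any 1 library was left out.

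**Figure D4:**
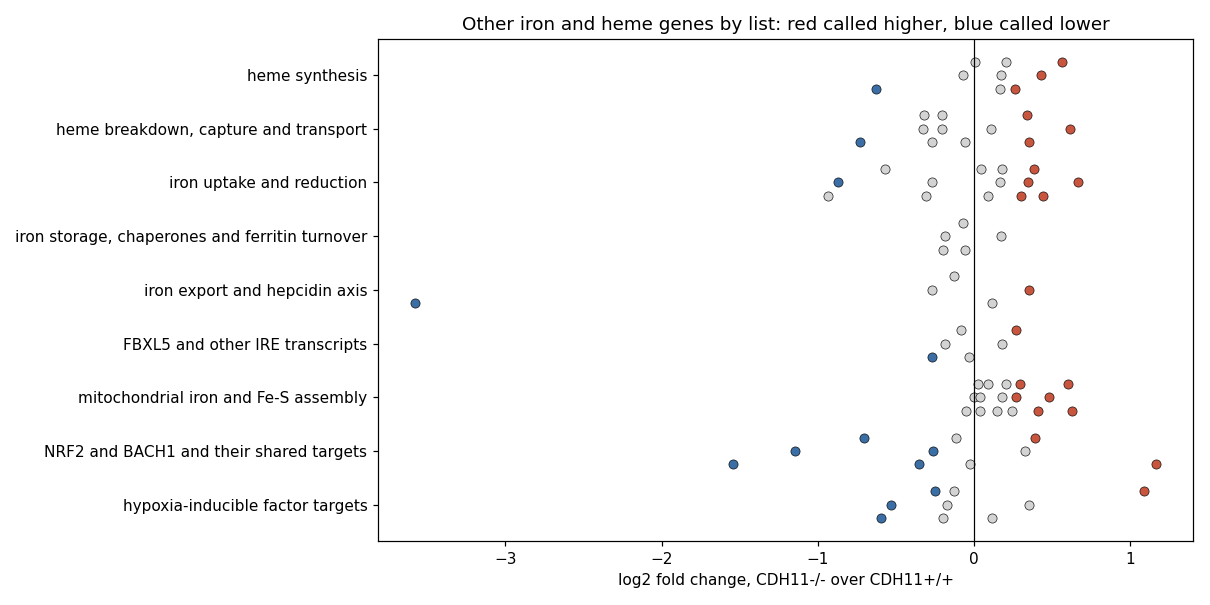
Log2 fold change of CDH11-/- over CDH11+/+ libraries (x axis) for every tested gene of 9 lists around the members, 1 point per gene, red where called higher, blue where called lower and grey where not called. Vertical offsets within a list only separate the points. Tmprss6, at -3.58, lies farthest from 0, and the mitochondrial list has 6 red points and no blue one.

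Regulators that act on Hmox1, the ferritin chains and Tfrc were read from the same fit. Of 10 genes around NRF2 and BACH1, which activate and repress Hmox1 and ferritin transcription, 5 fell, against 12.9% of all tested genes, and 2 rose (median log2 fold change -0.19). NRF2 itself (Nfe2l2) was 1.63-fold lower, at 94.7 ± 6.95 CPM (SD, n = 3) against 58.1 ± 2.82 CPM (SD, n = 4; edgeR adjusted p = 0.000179), and Nqo1, Srxn1 and Txnrd1 were 2.91-fold, 2.21-fold and 1.28-fold lower. Slc7a11, at 0.526 CPM or less in every library, rose 2.25-fold and Gclm 1.31-fold (adjusted p = 0.027 and 0.0368, edgeR). These were the 2 that rose, and they were singled out after their values were seen. The number rising was 0 without CDH11+/+ replicate 2 or CDH11-/- replicate 4 and 1 without each other library. The letters of the antioxidant response element that NRF2 binds (TGAC, any 3 bases, GC), sought on both strands of RefSeq promoters (GRCm38.p6, 250 bases before to 50 after each start), were in none of the 6 members that had a promoter there, and in 14% of the 27025 genes that had one. Hmox1 was not among these, and the promoter of Nqo1, a known NRF2 target, held no match either, so nothing about NRF2 can be read from these windows. Of 9 tested hypoxia-inducible targets, 3 fell, against the same 12.9%, and 1 rose (median log2 fold change -0.17). Vegfa, Slc2a1 and Adm were 1.19-fold, 1.44-fold and 1.51-fold lower. The fall of Vegfa was not called without CDH11+/+ replicate 2 (adjusted p = 0.0558), that of Slc2a1 without CDH11+/+ replicate 1 or 3 (up to 0.0666) and that of Adm without CDH11+/+ replicate 1 or 2 or CDH11-/- replicate 2 or 3 (up to 0.0805, all edgeR), and 1 target fell without CDH11+/+ replicate 1 or 2. Ndrg1 was 2.13-fold higher with overlapping groups, a call lost without each library except CDH11-/- replicate 1 (adjusted p of up to 0.131, edgeR).

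Blood and macrophages carry much of the body's iron, so their markers are given beside the members. Of the 7 tested red cell markers, 0 were called by edgeR with all 7 libraries, where 29.7% of all tested genes were. Of these markers, 0 were also called with any 1 library left out or by DESeq2 or limma-voom, and 0 had an unadjusted p under 0.05. Their summed level was 577 to 702 CPM in the CDH11+/+ libraries and 526 to 934 CPM in the CDH11-/- ones. Hba-a1 and Hbb-bs had log2 fold changes of 0.10 and 0.15 (adjusted p = 0.677 and 0.616, edgeR). The highest summed red cell level, 934 CPM, was in CDH11-/- replicate 3, which also had the most Fth1 and Aco1. The lowest, 526 CPM, was in CDH11-/- replicate 4, which had the least Fth1 of the CDH11-/- libraries (1855 CPM). Its Aco1, at 284.99 CPM, was above CDH11-/- replicates 1 and 2 (268.14 and 273.45 CPM). CDH11+/+ replicate 1 had the highest red cell level of its group, 702 CPM. That library had the least Fth1 (1500 CPM) and the least Aco1 (216.80 CPM) of all 7 libraries. Macrophage markers summed to 36.8 to 96.2 CPM and 67.0 to 90.5 CPM. Of 9 tested, 1 rose and 0 fell, where 16.8% and 12.9% of all tested genes did. The 1 that rose was Csf1r, 1.80-fold (adjusted p = 0.0269, edgeR). Its call was lost without CDH11+/+ replicate 1 or CDH11-/- replicate 1, 3 or 4 (adjusted p of up to 0.0698, edgeR). The median log2 fold change of the 9 tested was -0.32, and without CDH11+/+ replicate 2, 3 macrophage markers fell. Vsig4, Timd4 and Marco, which mark resident and scavenger macrophages, had at most 0.04 CPM in any library. Among 9 markers of other kidney cells 5 fell and 1 rose by edgeR, where 12.9% and 16.8% of all tested genes did. With DESeq2 and with limma-voom 7 fell. Slc12a3 of the distal convoluted tubule was 1.71-fold, the endothelial Pecam1 1.29-fold and the podocyte gene Nphs1 1.43-fold lower. Cdh16, of tubule cells, was 1.42-fold higher. The Nphs1 call was lost without CDH11+/+ replicate 1 or 2 or CDH11-/- replicate 2, 3 or 4 (adjusted p of up to 0.0893, edgeR), and the number falling was 2 without CDH11+/+ replicate 1 or CDH11-/- replicate 3 and 3 without CDH11+/+ replicate 2 or CDH11-/- replicate 2 or 4. The part of these cells in the members' differences was not tested.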

How the data were processed

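Per the labels' protocols, RNA of 7 kidneys was extracted with Trizol and columns and made into directional libraries. The authors deposited expected counts, whole numbers per gene and library, and a table of normalized values, a signal equal to the counts multiplied by factors that differ between genes. Per the submitters' processing notes DRAGEN, DESeq2 and mm10 were used; for the versions, annotation and strand setting the entry is: not given in the sources used here. Symbols and positions came from GENCODE M21, which matched all 42256 identifiers. No 2 libraries agreed within sampling noise (median chi-square per gene 2.69 to 12.8 over 21 pairs, where 0.455 is expected).

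Counts were filtered with filterByExpr, scaled by TMM and tested in R 4.3.3 by the robust quasi-likelihood F test of edgeR 4.0.16, with Benjamini-Hochberg adjustment over all 17964 tested genes, and a gene was called at an adjusted p under 0.05. No rounding was needed. Standard errors were derived from the F statistic, and intervals are at 95%. Alternatives were DESeq2 1.42.0, limma-voom with quality weights and limma-trend (limma 3.58.1, log2 of the deposited value plus 1), other scalings and filters, 1 surrogate variable (sva 3.50.0), other gene sets and the omission of each library. Summed ferritin copies and the deposited factors as offsets were added after seeing the data. The edgeR step was tested on simulated data. The lists and members were chosen with earlier results of these data known, so no list was tested as a set. Named genes were all members, Cdh11, ferritin copies and, per list, up to 4 called genes by adjusted p, or else the 2 most abundant. Genes named outside this rule were chosen after their values were seen. Python 3.11.15, pandas 2.3.3 and SciPy 1.17.1 were used. Replicate numbers follow accession order and only name libraries.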

Additional observations from a re-analysis of the deposited data

How the results depend on the processing

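Slc11a2, Tfrc, Aco1 and Cp kept their direction and their call under all 19 alternatives run. The number of members called higher was 5, and 3 with relative log expression scaling; it ranged from 3 to 4 over the omissions of a library. The number called lower was 2, and 1 without the low-count filter, where Trf had an adjusted p = 0.0523; it ranged from 1 to 3 over the omissions. The calls lost with relative log expression scaling were Fth1 (adjusted p = 0.0518, edgeR) and Ireb2 (adjusted p = 0.0515, edgeR). The sign of Slc40a1 turned with limma-voom (-0.0123), with protein-coding genes only (-0.003154) and without CDH11+/+ replicate 3 or CDH11-/- replicate 2 (range over the omissions -0.0519 to 0.05683), and those of Hba-a1 (-0.05009 to 0.1928) and Hbb-bs (-0.07398 to 0.2589) turned without CDH11-/- replicate 3. Over all genes 5327 were called, 3804 to 5300 with a library left out. Among the lists around the members, counts also moved with other settings: 1 NRF2 or BACH1 gene rose with a mean of at least 1 CPM, limma-trend or the offsets, 0 hypoxia targets rose with no filter, 1 surrogate variable, limma-trend or the offsets, and with no filter 0 heme synthesis genes fell and 0 macrophage markers rose. With 1 surrogate variable 2 uptake genes and 1 macrophage marker fell. In the list of Fbxl5 and other transcripts, 2 rose with DESeq2 and limma-voom, and 0 fell with limma-voom. The cause of these changes was not tested. No paired analysis was possible because the labels give no replicate numbers that the groups share. Counts of the members were 911 or more in every library, so counting error was small beside the spread between mice.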

Other observations

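The deposited normalized values treat some members differently from their counts. Relative to the median gene of each library, the factors that turn counts into normalized values were lower in the CDH11-/- than in the CDH11+/+ libraries by 0.12 for Tfrc and 0.08 for Slc11a2, and higher by 0.18 for Trf and 0.07 for Ireb2, on the log2 scale. For Fth1, Ftl1, Cp, Hmox1, Slc40a1 and Aco1 the difference was at most 0.02 in size. For Cdh11 it was -0.39. With these factors as offsets, Tfrc had a log2 fold change of 0.47 (adjusted p = 0.00758), Slc11a2 0.58 (adjusted p = 0.0273) and Trf -1.01 (adjusted p = 0.0332, all edgeR), and each kept its call. How the factors were made is not stated per the labels or notes.

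Lcn2, the siderophore-binding protein released by injured tubules, was low and uneven in these kidneys, at 2.61, 1.51 and 4.18 CPM in the CDH11+/+ libraries and 2.56, 0.377, 1.62 and 1.20 CPM in the CDH11-/- libraries (log2 fold change -0.94, adjusted p = 0.263, edgeR). It was singled out after its values were seen.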
